A study of Mus musculus with 18 samples.

Results

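The 47 genes described here carry out or switch on DNA replication in S phase, the part of the cell cycle in which the genome is copied. They were taken by name and sorted by function into licensing (9 genes), helicase activation (6), polymerases and clamp (14), nucleotide supply (5), E2F factors and cyclin E (6), chromatin assembly (4), and fork checkpoint and repair (3). The rule used gene names and no measured value, but the genes were chosen with earlier results of these data known. All 47 were found among the 27933 gene symbols counted in hair follicle stem cells (HFSC) and the 52958 counted in dermal papilla cells (DP), and all 47 passed the filter on low counts in both cell types.

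The series profiled 18 bulk RNA-seq libraries of sorted cells from female mice, in 9 groups of 2 libraries. HFSC are the epithelial stem cells that regrow the hair follicle, and DP cells form the mesenchymal signalling centre at its base. In the surgery experiment, wild-type C57BL/6 mice were adrenalectomised and fed corticosterone (ADX+CORT, HFSC alone), adrenalectomised (ADX) or sham-operated (Sham). In the deletion experiment, 129/C57BL/6 mice carried Pdgfra-CreER and floxed alleles of the glucocorticoid receptor GR (Pdgfra-CreER; GR fl/fl, here GR KO) or were wild type (Control). Both groups of the deletion experiment received tamoxifen by intraperitoneal injection over 6 days, and the Control mice are labelled wild type, with no Cre named. Pdgfra-CreER is active in Pdgfra-expressing dermal cells, so that HFSC, which are epithelial, are not the cells it is meant to target. The comparisons ask how loss of the adrenal steroid, its return, and loss of its receptor in the dermis relate to the state of the follicle stem cells. The mice's ages are not given in the sources used here, nor whether the 2 libraries of a group came from separate animals, so the p-values measure only the spread between these libraries.

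Replication proceeds in steps that the classes follow. Origins are licensed in G1 when ORC, CDC6 and CDT1 load the MCM2-7 ring onto DNA, and the ring becomes an active helicase once CDC45 and the GINS complex join it. Polymerases, the PCNA clamp and its RFC loader then copy the DNA from nucleotides supplied by ribonucleotide reductase and thymidylate synthase, and histone chaperones rebuild chromatin behind the fork. Many of these genes are transcribed at the G1/S transition by E2F factors, which are held back by RB family proteins until cyclin-dependent kinases act. HFSC spend most of the hair cycle in quiescence and replicate during a short phase of activation.

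Library totals were 14067139 to 33014976 counts in HFSC and 6194415 to 13941628 in DP. Reads of the 47 genes made up 0.108% to 0.384% of an HFSC library and 0.0549% to 0.0828% of a DP library, with a median of 224 to 873 reads per gene in HFSC and 53 to 128 in DP. Summed levels of 10 HFSC markers were 22090 to 55800 CPM (counts scaled to a common library total) in the HFSC libraries, and 12 DP markers summed to 1920 to 6098 CPM in the DP libraries, with none of the 12 at 0. Nr3c1, which encodes GR, had 137 and 111 CPM in GR KO DP, against 671 and 978 CPM in Control DP. In HFSC it had 243 and 170 CPM in GR KO, against 258 and 338 CPM in Control, lower in both libraries and not past the threshold (log2 fold change -0.53, SE 0.24, adjusted p = 0.367). The surgery and deletion experiments differed in strain and treatment, and the sum of 7 immune markers was 2472 to 2990 CPM in the HFSC of the deletion experiment and 48.4 to 165 CPM in those of the surgery experiment. Each comparison was therefore made within an experiment.

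Stretches before the start sites of some of these genes are shown, with the letters that E2F factors are known to bind. Whether these letters relate to the fold changes was not tested. Matches were sought in the 150 bases before the start site. In each function class, the matching gene with the smallest p-value after GR deletion in HFSC is printed. Fork checkpoint and repair has no such gene. The match of Brca1 lies after the start site, Clspn has no match, and Esco2 had no promoter window and was not searched. E2f1, which rose, is printed as well, and its stretch holds no match. That stretch lies within the annotated E2f1 gene (chr2:154559407-154569892), so the bases before the gene's 5′ end were not searched. The stretches of Gins3, Prim1 and Hells cross the annotated 5′ end, and their marked letters lie within the gene. Each stretch runs from 150 bases to 1 base before the RefSeq start site, 5′ to 3′ on the gene's strand in GRCm38.p6, and capitals mark TTCCCGC or TTGGCGC on either strand.
Mcm6 (chr1:128359706-128359855, minus strand): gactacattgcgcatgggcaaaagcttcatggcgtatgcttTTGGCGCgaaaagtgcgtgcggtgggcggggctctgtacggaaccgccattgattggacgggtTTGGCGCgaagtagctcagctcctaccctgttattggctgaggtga
Gins3 (chr8:95633409-95633558, plus strand): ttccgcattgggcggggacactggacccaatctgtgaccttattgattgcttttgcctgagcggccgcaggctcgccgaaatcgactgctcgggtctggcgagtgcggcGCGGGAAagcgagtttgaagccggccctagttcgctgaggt
Prim1 (chr10:128015065-128015214, plus strand): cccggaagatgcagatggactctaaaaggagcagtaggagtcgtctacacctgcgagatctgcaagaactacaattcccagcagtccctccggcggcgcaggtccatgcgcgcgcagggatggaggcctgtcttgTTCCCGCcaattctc
Rrm1 (chr7:102441545-102441694, plus strand): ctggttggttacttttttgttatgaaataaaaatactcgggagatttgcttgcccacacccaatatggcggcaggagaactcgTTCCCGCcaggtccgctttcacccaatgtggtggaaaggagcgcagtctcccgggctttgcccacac
E2f8 (chr7:48881597-48881746, minus strand): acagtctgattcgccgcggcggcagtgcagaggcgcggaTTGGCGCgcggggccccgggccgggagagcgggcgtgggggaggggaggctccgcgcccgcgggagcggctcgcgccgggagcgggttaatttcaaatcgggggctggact
Hells (chr19:38930840-38930989, plus strand): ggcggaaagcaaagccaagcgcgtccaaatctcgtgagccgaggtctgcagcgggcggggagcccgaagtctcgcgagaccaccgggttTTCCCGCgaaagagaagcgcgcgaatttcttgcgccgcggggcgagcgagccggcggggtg
E2f1 (chr2:154569427-154569576, minus strand): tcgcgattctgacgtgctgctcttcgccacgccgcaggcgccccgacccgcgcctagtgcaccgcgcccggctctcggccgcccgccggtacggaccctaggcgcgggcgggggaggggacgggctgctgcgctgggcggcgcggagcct
Mcm6 holds the motif at 2 places in the stretch shown, and the other genes with a match hold it once.

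Of the 47 genes, 39 had a promoter window in the RefSeq table, which runs from 250 bases before to 50 bases after the start site. TTCCCGC or TTGGCGC, on either strand, stood in the windows of 23 of these 39 genes (59%), and in 7.79% of all 27025 genes with a window. The 8-letter forms TTTCCCGC and TTTGGCGC, which contain the shorter ones, stood in 14 of 39 (35.9%) and in 1.8% of all genes. CCAAT, a common promoter box that can overlap the E2F letters by a base or more, stood in 23 of 39 (59%) and in 41.1% of all genes. ACANNNTGT, the core of a glucocorticoid response element, stood in 2 of 39 (5.13%) and in 7.9% of all genes. The 2 are Gins3, which encodes a GINS subunit, and Mcm7, which encodes a subunit of the MCM ring. Of the 8 genes past the threshold after GR deletion in HFSC that have a window, 2 held the 7-letter motif, namely Mcm6 and Rrm1. E2f1 is another of the 8, and its window lies within the annotated gene, not at the gene's 5′ end. The windows that hold the matches of Cdc6, Lig1 and Mcm7 also lie within the annotated gene. These are matches of letters in a short window and were not tested as binding sites.

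Per length, the most abundant of these genes in HFSC was Pcna, the sliding clamp, with a mean of 55.5 counts per kilobase of exon, scaled to the library total (RPKM), over the 10 libraries. Dut, which clears dUTP, followed at 42.6, Rrm1, the large subunit of ribonucleotide reductase, at 34.7, and the MCM ring subunits Mcm6 and Mcm4 at 23.9 and 21.5 RPKM. At the low end were E2f7, a repressing E2F factor, at 0.328 and Mcm10, a helicase activator, at 0.633 RPKM. In DP, where each transcript's estimated count was divided by that transcript's own length before summing, the order began with Pcna at 49.4 and the clamp loader subunit Rfc2 at 36.0. Rrm1 at 26.7, Tyms (thymidylate synthase) at 23.3 and Mcm7 at 19.8 followed on this transcript-length scale. The scales of the cell types differ, and their levels were not compared.

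**Figure D1:**
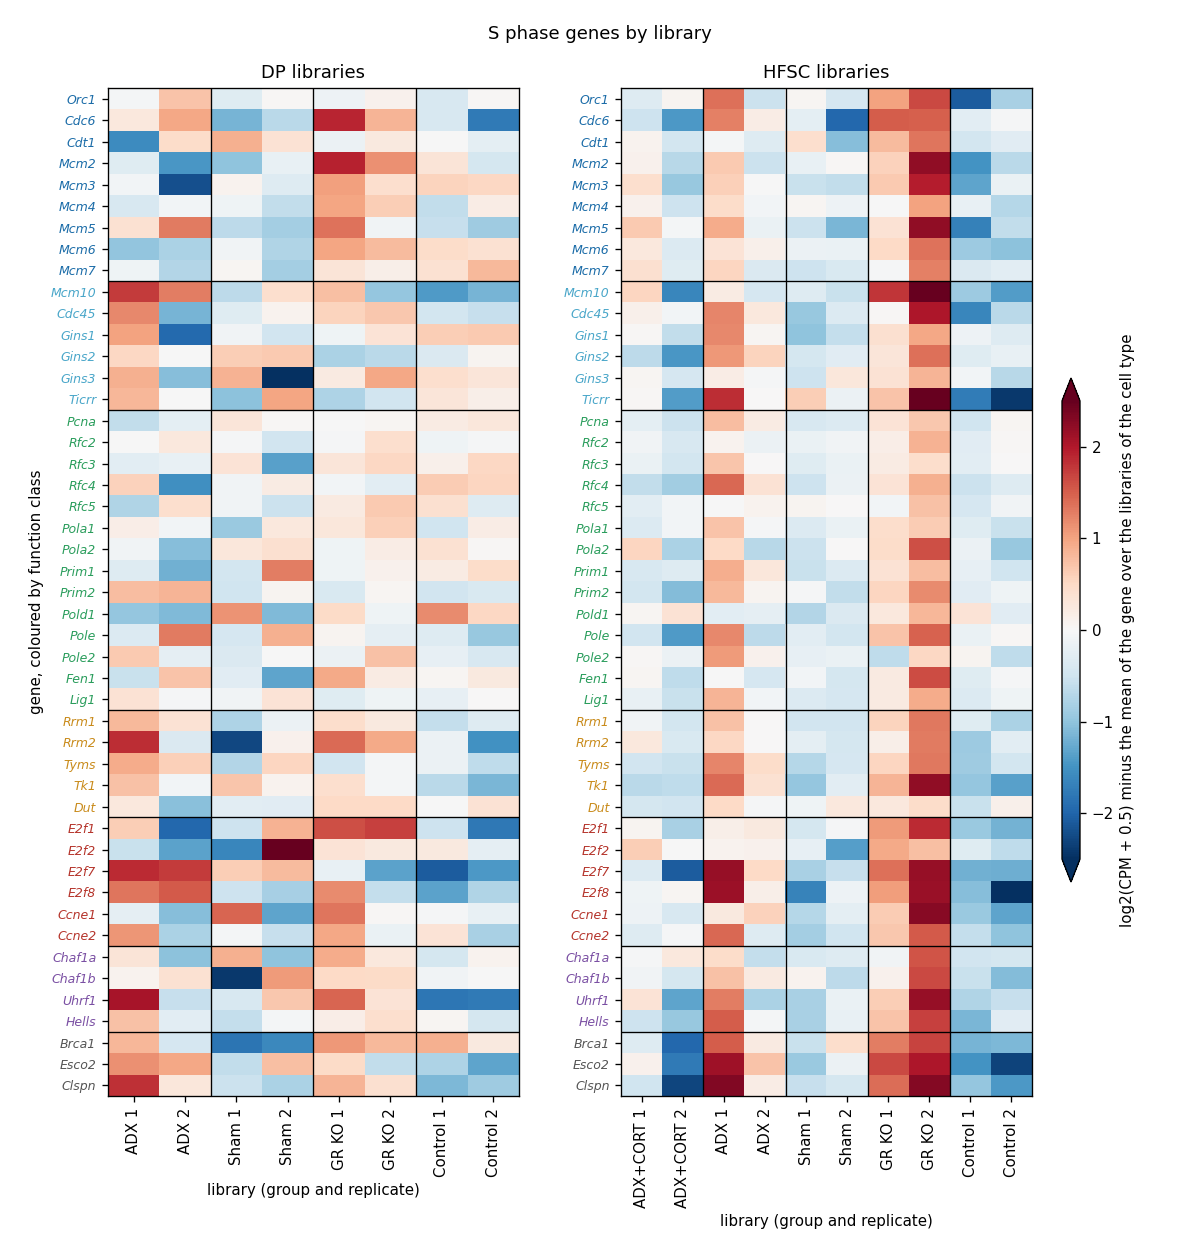
Heat map of the 47 S phase genes (rows, coloured by function class) in every DP and HFSC library (columns). Colour gives log2(CPM + 0.5) minus the mean of the gene over the libraries of that cell type, and the scale ends at 2.5. In HFSC the columns of GR KO replicate 2 and ADX replicate 1 stand out, with the highest level of 34 and 11 genes.

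In HFSC of GR KO mice, all 47 S phase genes had a positive log2 fold change against Control HFSC (50.4% of all genes tested), and 9 of them rose past the threshold. These were Mcm6 and Mcm2 (licensing), Ticrr (helicase activation), Tk1, Tyms and Rrm1 (nucleotide supply), E2f1 and Ccne1 (E2F and cyclin E) and Esco2 (fork checkpoint and repair). None of the 14 polymerase and clamp genes and none of the 4 chromatin assembly genes passed in edgeR's test. Over all 15231 genes tested, 0.985% passed in either direction and 0.67% rose (edgeR's quasi-likelihood test, adjusted p under 0.05). The summed level of the 47 genes was 2005 and 3766 CPM in GR KO HFSC, against 1086 and 1195 CPM in Control HFSC, so that both GR KO libraries lay above both Control libraries. In bulk libraries, a larger share of cells in S phase and more of these RNAs per cell cannot be told apart.

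The median log2 fold change of the 47 genes was 1.53, and that of all genes tested was 0.01. Both GR KO libraries lay above both Control libraries for 45 of the 47 genes, against 19.3% of all genes tested, and Pold1 and Pole2 overlapped. By class the median log2 fold change was 3.31 for fork checkpoint and repair, 2.90 for E2F and cyclin E, 1.98 for licensing, 1.97 for chromatin assembly, 1.84 for helicase activation, 1.53 for nucleotide supply and 0.89 for polymerases and clamp. GR KO replicate 2 had the higher level of the 2 GR KO libraries for 45 genes. Even so, replicate 1 alone was above both Control libraries for 45 genes.

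**Figure D2:**
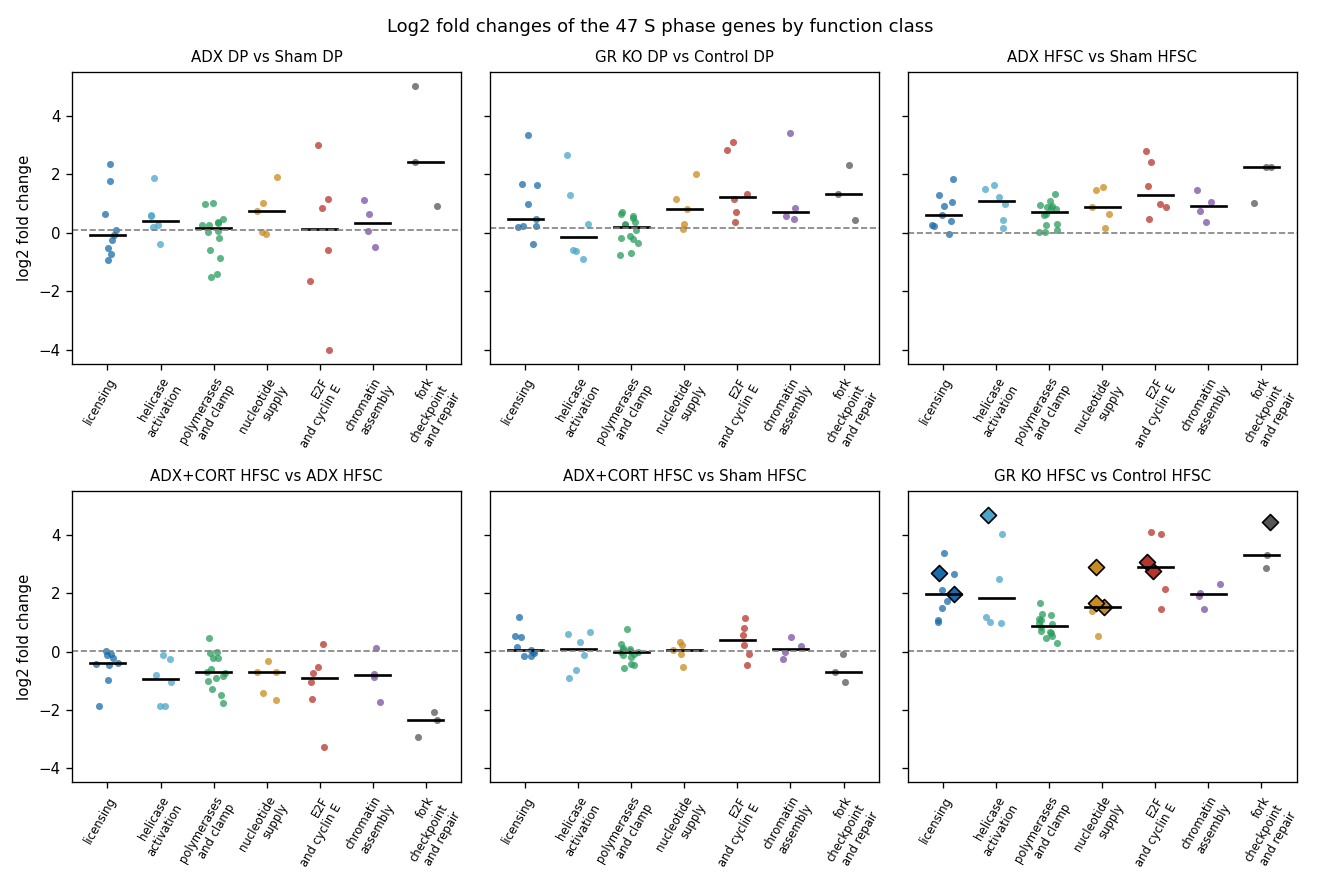
Log2 fold changes (y axis, tested over reference as named above each panel) of the 47 S phase genes in the 6 comparisons, by function class (x axis). Points are genes, diamonds with a black edge are genes past the adjusted threshold, black bars are class medians and the dashed line is the median of all genes tested. Diamonds appear in the panel of GR KO against Control HFSC alone, where every gene lies above 0.

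Among the licensing genes, Mcm6 (chr1:128331590-128359664), a subunit of the MCM ring, had 141 and 256 CPM in GR KO HFSC, against 52.4 and 48.1 CPM in Control HFSC. Its log2 fold change was 1.98 (SE 0.30, adjusted p = 0.0288). Mcm2 (chr6:88883474-88898780), another ring subunit, had 47.1 and 149 CPM in GR KO HFSC, against 10.8 and 19.5 CPM in Control HFSC. The groups did not overlap for either gene, and the log2 fold change of Mcm2 was 2.68 (SE 0.54, adjusted p = 0.0413). For the ring subunit Mcm5 the values were 46.2 and 168 CPM in GR KO HFSC and 10.7 and 23.1 CPM in Control HFSC, and its adjusted p of 0.0521 missed the threshold. Mcm4, the second most abundant ring subunit per length, had 72.3 and 146 CPM in GR KO HFSC and 64.1 and 44.1 CPM in Control HFSC, with a log2 fold change of 1.01 (SE 0.34, adjusted p = 0.208). Its GR KO replicate 1 lay barely above the higher Control library. The remaining 5 licensing genes had log2 fold changes of 1.07 (Mcm7) to 3.38 (Orc1, the largest subunit of the origin recognition complex), and all lay higher in both GR KO libraries. Orc1 is among the least abundant, with 5.05 and 8.08 CPM in GR KO HFSC and 0.153 and 1.07 CPM in Control HFSC, and its SE was 1.03. Cdc6 and Cdt1, the loaders of the ring, had log2 fold changes of 1.73 (SE 0.64, adjusted p = 0.254) and 1.50 (SE 0.48, adjusted p = 0.176).

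Of the genes that activate the helicase, Ticrr (chr7:79660196-79698148), also called Treslin and needed to bring CDC45 to the ring, had 7.37 and 26.4 CPM in GR KO HFSC, against 0.920 and 0.40 CPM in Control HFSC. It rose by a log2 fold change of 4.69 (SE 0.93, adjusted p = 0.0384), with both GR KO libraries above both Control libraries. The Control libraries held 18 and 12 reads of Ticrr, so that few reads stand behind this fold change. Mcm10 had 10.7 and 21.2 CPM in GR KO HFSC, against 1.23 and 0.733 CPM in Control HFSC, with no overlap. Its log2 fold change was 4.03 (SE 0.89) and its adjusted p of 0.0536 missed the threshold. Cdc45, the helicase partner of the ring, had 16.5 and 67.2 CPM in GR KO HFSC and 4.91 and 9.99 CPM in Control HFSC (log2 fold change 2.48, adjusted p = 0.066). The 3 GINS genes, had log2 fold changes of 0.99 to 1.20 and did not pass. Exons of Ticrr overlap those of Kif7 on the other strand, and exons of Cdc45 and Gins2 overlap other genes likewise, so that reads of the shared stretches are uncertain in this unstranded chemistry.

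The polymerase and clamp genes had the smallest class median. Pcna had 159 and 202 CPM in GR KO HFSC, against 89.5 and 130 CPM in Control HFSC, with no overlap and a log2 fold change of 0.72 (SE 0.26, adjusted p = 0.245). Prim1, the catalytic subunit of primase, had 69.4 and 93.4 CPM in GR KO HFSC and 47.2 and 38.3 CPM in Control HFSC (log2 fold change 0.93, SE 0.27, adjusted p = 0.128). Pola1, the catalytic subunit of polymerase alpha, had 41.0 and 46.7 CPM in GR KO HFSC and 24.4 and 20.3 CPM in Control HFSC (log2 fold change 0.97, SE 0.29, adjusted p = 0.154). These 3 genes were higher in both GR KO libraries, yet none passed over all genes tested. The largest log2 fold change of the class was 1.66 for Pola2, the accessory subunit of polymerase alpha, and the smallest was 0.29 for Pole2, a subunit of polymerase epsilon. Pold1, the catalytic subunit of polymerase delta, had 24.2 and 36.3 CPM in GR KO HFSC and 25.5 and 16.5 CPM in Control HFSC, so that the groups overlapped. Pcna has 2 annotated pseudogenes and Pole2 shares exon bases with a gene on its own strand, so their counts may be split. Exons of Rfc4 overlap Eif4a2 on the other strand, and those of Rfc2, Rfc5, Pole, Fen1 and Lig1 overlap other genes likewise. Outside this class the same holds for Mcm7, Orc1, E2f7, E2f8, Ccne2 and Chaf1a. Reads of all these shared stretches are uncertain.

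For the supply of nucleotides, Tk1 (chr11:117815526-117826092), thymidine kinase, had 59.6 and 156 CPM in GR KO HFSC, against 16.7 and 12.6 CPM in Control HFSC. Its log2 fold change was 2.88 (SE 0.46, adjusted p = 0.0326). Tyms (chr5:30058202-30073617) had 85.7 and 148 CPM in GR KO HFSC, against 31.6 and 43.1 CPM in Control HFSC, with a log2 fold change of 1.65 (SE 0.32, adjusted p = 0.0384). The groups were apart for both genes, and replicate 2 was again the higher of the GR KO libraries. Rrm1 (chr7:102441695-102469771) had 182 and 310.0 CPM in GR KO HFSC, against 99.3 and 71.2 CPM in Control HFSC, with a log2 fold change of 1.53 (SE 0.31, adjusted p = 0.0415). Its partner Rrm2, the small subunit of ribonucleotide reductase, had a log2 fold change of 1.40 (SE 0.38, adjusted p = 0.106). Dut had 119 and 137 CPM in GR KO HFSC, against 67.1 and 109 CPM in Control HFSC, and its log2 fold change of 0.53 (SE 0.27) was the smallest of the class. Exons of Tk1 overlap Afmid on the other strand and Tyms has an annotated pseudogene, and reads of the shared stretches are uncertain.

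E2f1 (chr2:154559407-154569892), an activating E2F factor, had 15.8 and 28.1 CPM in GR KO HFSC, against 3.63 and 2.93 CPM in Control HFSC. It rose by a log2 fold change of 2.74 (SE 0.49, adjusted p = 0.0327). Ccne1 (chr7:38097984-38107534), cyclin E1, which activates CDK2 at the G1/S transition, had 7.92 and 25.6 CPM in GR KO HFSC, against 2.35 and 1.67 CPM in Control HFSC (log2 fold change 3.06, SE 0.62, adjusted p = 0.0415). Neither gene showed an overlap between the groups. The repressing factors E2f7 and E2f8, which are themselves E2F targets, had log2 fold changes of 4.09 (SE 1.30, adjusted p = 0.175) and 4.02 (SE 1.04, adjusted p = 0.0894). Their Control levels were 0.409 and 0.40 CPM for E2f7 and 1.43 and 0.167 CPM for E2f8, so that few reads stand behind them. E2f2, another activating factor, and Ccne2, cyclin E2, had log2 fold changes of 1.46 and 2.15 and did not pass.

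Esco2 (chr14:65819038-65833994), which acetylates cohesin at the fork, had 12.9 and 17.0 CPM in GR KO HFSC, against 1.02 and 0.366 CPM in Control HFSC. The log2 fold change was 4.45 (SE 0.88, adjusted p = 0.0384), and the GR KO libraries were closer to each other here than for most genes. Few reads stand behind the Control values of Esco2, at 20 and 11. Clspn, the fork checkpoint adaptor claspin, and Brca1, which acts in recombination at damaged forks, were also higher in both GR KO libraries, with log2 fold changes of 3.31 (SE 0.75, adjusted p = 0.0578) and 2.86 (SE 0.68, adjusted p = 0.0649). The 4 chromatin assembly genes had log2 fold changes of 1.47 to 2.31. Chaf1b, a subunit of the histone chaperone CAF-1, had 25.4 and 75.1 CPM in GR KO HFSC and 15.9 and 10.8 CPM in Control HFSC (log2 fold change 1.91, SE 0.46, adjusted p = 0.0696).

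**Figure D3:**
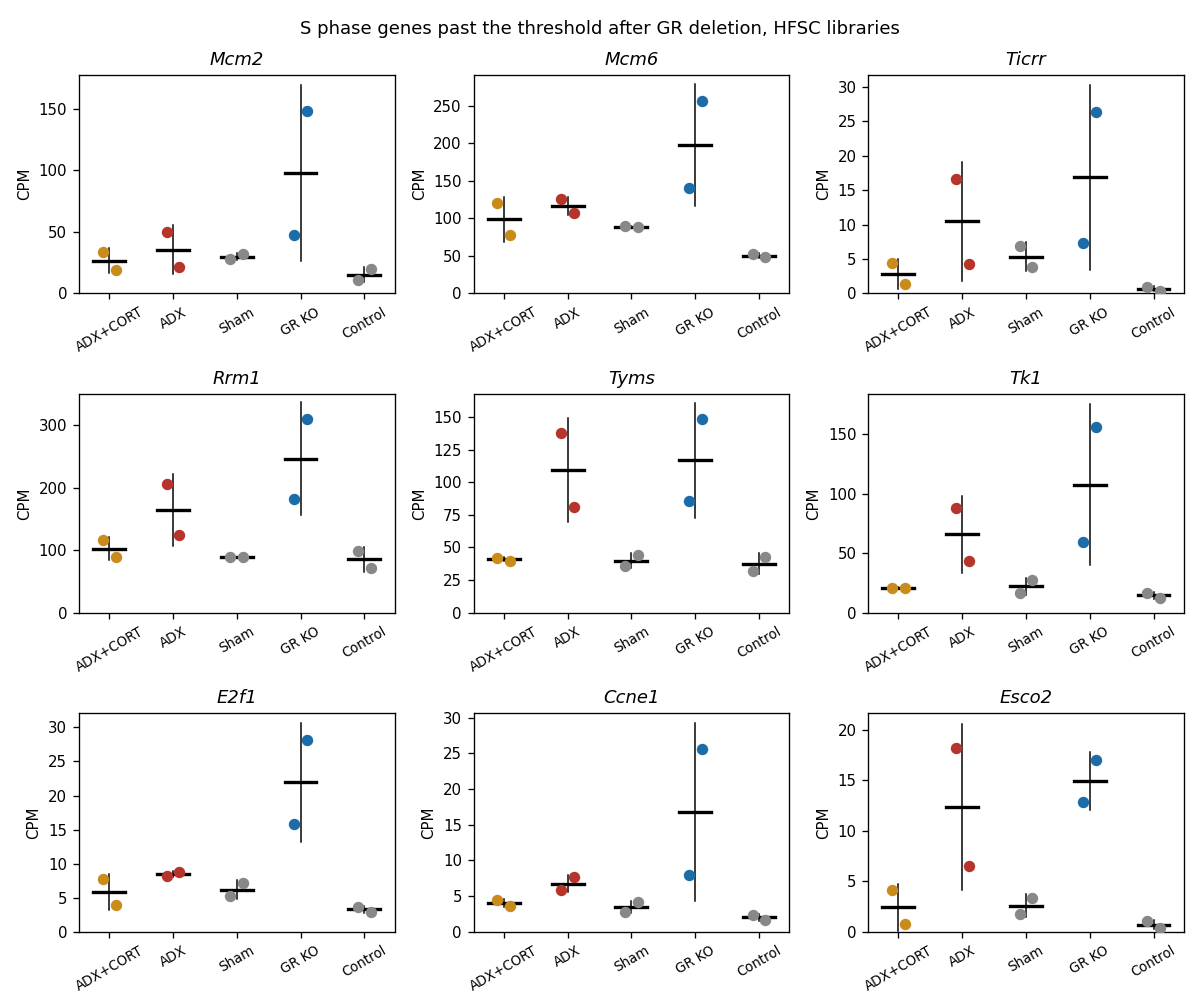
CPM (y axis, from 0) of the 9 S phase genes past the threshold for GR KO against Control, in each of the 10 HFSC libraries. Points are libraries, the horizontal bar is the mean of the 2 libraries and the vertical line is its SD, ended at 0 where it would go below. In every panel both GR KO points lie above both Control points, and the upper GR KO point is replicate 2.

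The calls rested on few libraries. At an unadjusted p under 0.05, 42 of the 47 genes were higher and none lower, against 7% and 6.12% of all genes tested, and DESeq2 called 27. These 27 included Pola1, Pola2 and Prim1 of the polymerases and Chaf1b, Hells and Uhrf1 of chromatin assembly. The number called among all genes also rose with DESeq2 and moved with a library left out, as given at the end. Without GR KO replicate 2, 1 of the 9 genes stayed past the threshold (Mcm6, adjusted p = 0.04) and the median log2 fold change of the 47 was 1.10. Without either Control library none of the 9 did, with adjusted p-values of 0.0563 to 0.235, whereas 22 genes passed without GR KO replicate 1.

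In HFSC of ADX mice, 46 of the 47 genes had a positive log2 fold change against Sham HFSC, as had 49.6% of all genes tested. None of the 47 passed edgeR's threshold, against 0.282% of all genes tested that rose and 0.0131% that fell (0.295% together). At an unadjusted p under 0.05, 20 genes were higher and none lower (9.01% and 6.21% of all genes tested), and DESeq2 called 8 (Clspn, Gins1, Gins2, Pcna, Prim1, Rfc4, Tk1 and Tyms). The median log2 fold change was 0.89, and that of all genes tested was 0.00. Both ADX libraries lay above both Sham libraries for 31 genes and below for none, against 25.5% and 23.9% of all genes tested. Summed levels were 2580 and 1580 CPM in ADX HFSC, against 1230 and 1292 CPM in Sham HFSC. ADX replicate 1 was the higher ADX library for 42 of the 47 genes, and without it the median log2 fold change was 0.36. Without ADX replicate 2 the median was 1.21. DESeq2 also called more of all genes tested than edgeR did, as given at the end.

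Tyms, of the nucleotide supply class, gave the smallest p-value of the 47 genes after adrenalectomy. It had 138 and 81.1 CPM in ADX HFSC, against 35.6 and 43.9 CPM in Sham HFSC, with a log2 fold change of 1.46 (SE 0.32, adjusted p = 0.0739). Tk1 had 88.3 and 43.1 CPM in ADX HFSC, against 16.6 and 27.3 CPM in Sham HFSC (log2 fold change 1.58, SE 0.44, adjusted p = 0.118). For both, each ADX library was above each Sham library. Rrm1 had 205 and 124 CPM in ADX HFSC, against 88.6 and 88.4 CPM in Sham HFSC, again apart (log2 fold change 0.89, SE 0.31, adjusted p = 0.19). Dut had 141 and 96.9 CPM in ADX HFSC, against 91.5 and 119 CPM in Sham HFSC, where the groups overlapped.

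Of the polymerase and clamp genes, Prim1 had 102 and 65.8 CPM in ADX HFSC, against 36.7 and 42.6 CPM in Sham HFSC (log2 fold change 1.08, SE 0.27, adjusted p = 0.0923). Rfc4, a clamp loader subunit, had 70.3 and 33.3 CPM in ADX HFSC, against 17.7 and 23.2 CPM in Sham HFSC (log2 fold change 1.34, SE 0.36, adjusted p = 0.108). Pcna had 216 and 145 CPM in ADX HFSC, against 94.9 and 99.0 CPM in Sham HFSC (log2 fold change 0.90, SE 0.26, adjusted p = 0.131). In all 3 the groups were apart, while Rfc5, Rfc2 and Fen1, the flap endonuclease, had log2 fold changes of 0.01, 0.10 and 0.04. Gins2 and Gins1 had log2 fold changes of 1.22 (SE 0.37, adjusted p = 0.138) and 1.63 (SE 0.52, adjusted p = 0.163), with both ADX libraries above both Sham libraries.

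Licensing genes were the class with the smallest median in this comparison, at 0.60. Mcm6 had 125 and 108 CPM in ADX HFSC, against 89.5 and 88.4 CPM in Sham HFSC, with no overlap and a log2 fold change of 0.39 (SE 0.29, adjusted p = 0.548). Mcm4 had 99.8 and 69.4 CPM in ADX HFSC, against 75.8 and 67.0 CPM in Sham HFSC, and the groups overlapped. Cdc6 had 14.6 and 6.73 CPM in ADX HFSC, against 4.82 and 1.13 CPM in Sham HFSC (log2 fold change 1.83, SE 0.65, adjusted p = 0.209). Mcm5 had 68.2 and 31.9 CPM in ADX HFSC, against 24.6 and 15.8 CPM in Sham HFSC (log2 fold change 1.31, SE 0.56, adjusted p = 0.287). All 6 E2F and cyclin E genes were higher in both ADX libraries, with log2 fold changes of 0.46 (E2f1) to 2.81 (E2f7). E2f8 had 17.2 and 3.92 CPM in ADX HFSC, against 0.764 and 3.18 CPM in Sham HFSC, and Ccne2 had 14.5 and 3.98 CPM in ADX HFSC, against 2.59 and 3.46 CPM in Sham HFSC, so that ADX replicate 2 lay just above the Sham range for both. Clspn had 38.4 and 8.42 CPM in ADX HFSC, against 4.70 and 5.23 CPM in Sham HFSC, with a log2 fold change of 2.24 (SE 0.72, adjusted p = 0.167). Hells, a chromatin remodeller, had 31.8 and 10.3 CPM in ADX HFSC, against 5.87 and 9.32 CPM in Sham HFSC (log2 fold change 1.47, SE 0.56, adjusted p = 0.231).

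When corticosterone was fed after adrenalectomy, 43 of the 47 genes had a negative log2 fold change in ADX+CORT HFSC against ADX HFSC, while 50.1% of all genes tested had a positive one. No gene passed edgeR's threshold, among these or among all genes tested (0%), while at an unadjusted p under 0.05 19 of the 47 were lower and none higher (9.53% and 9.78% of all genes tested) and DESeq2 called 13. The median log2 fold change was -0.75, and that of all genes tested was 0.00. Summed levels were 1486 and 1110 CPM in ADX+CORT HFSC, against 2580 and 1580 CPM in ADX HFSC. Both ADX+CORT libraries lay below both ADX libraries for 26 genes and above for 1, Pold1, against 25.8% and 26.7% of all genes tested. Without ADX replicate 1 the median was -0.24, and without ADX replicate 2 it was -1.02. Here too DESeq2 called more of all genes tested than edgeR did, as given at the end. The same ADX libraries serve both comparisons of the surgery experiment described so far, so a high ADX value moves both in opposite directions.

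Gins2 had 23.8 and 13.4 CPM in ADX+CORT HFSC, against 80.5 and 55.5 CPM in ADX HFSC, with a log2 fold change of -1.87 (SE 0.37, adjusted p = 0.0573). Rfc4 had 16.6 and 13.8 CPM in ADX+CORT HFSC, against 70.3 and 33.3 CPM in ADX HFSC (log2 fold change -1.77, SE 0.36, adjusted p = 0.0573). Tyms had 42.1 and 39.9 CPM in ADX+CORT HFSC, against 138 and 81.1 CPM in ADX HFSC (log2 fold change -1.42, SE 0.32, adjusted p = 0.062). For each of these genes both ADX+CORT libraries were lower, and none passed. Tk1 and Prim1 had log2 fold changes of -1.66 (SE 0.44) and -1.0 (SE 0.27), each with an adjusted p of 0.0744, and both were lower in both ADX+CORT libraries. Clspn had 5.04 and 1.09 CPM in ADX+CORT HFSC, against 38.4 and 8.42 CPM in ADX HFSC (log2 fold change -2.93, SE 0.75, adjusted p = 0.0706). E2f7 was without a read in ADX+CORT replicate 2 and had 1.17 CPM in replicate 1, against 9.0 and 2.46 CPM in ADX HFSC.

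Among the other genes given in full here, Pcna had 106 and 86.3 CPM in ADX+CORT HFSC, below both ADX libraries (log2 fold change -0.91, SE 0.26, adjusted p = 0.0876). Cdc6 had 3.93 and 1.85 CPM in ADX+CORT HFSC (log2 fold change -1.88, SE 0.65, adjusted p = 0.141), also below both. Rrm1 had 116 and 89.1 CPM and Dut 73.3 and 71.2 CPM in ADX+CORT HFSC, each below the ADX range, with log2 fold changes of -0.68 (SE 0.31) and -0.72 (SE 0.27). Hells had 7.38 and 5.32 CPM in ADX+CORT HFSC, below both ADX libraries, with a log2 fold change of -1.73 (SE 0.56, adjusted p = 0.119). Mcm6 had 120 and 77.8 CPM and Mcm4 78.4 and 50.5 CPM in ADX+CORT HFSC, and both overlapped the ADX libraries. Ticrr (4.35 and 1.30 CPM) and E2f8 (3.24 and 3.64 CPM in ADX+CORT HFSC) had log2 fold changes of -1.88 (SE 0.81) and -1.62 (SE 0.93).

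Set against Sham HFSC, ADX+CORT HFSC showed no gene of the 47 past the threshold, nor any of all genes tested (0%). At an unadjusted p under 0.05, 1 of the 47 was higher (Pold1) and none lower (4.33% and 1.75% of all genes tested), and DESeq2 called 0. The median log2 fold change was -0.01, with 23 genes positive (50.8% of all genes tested) and 24 negative. Both ADX+CORT libraries lay above both Sham libraries for 10 genes and below for 5, against 21.5% and 19.1% of all genes tested. Pold1 had 20.9 and 26.1 CPM in ADX+CORT HFSC, against 12 and 15.5 CPM in Sham HFSC (log2 fold change 0.77, SE 0.33, adjusted p = 0.799). Mcm5 had 56.5 and 34.6 CPM in ADX+CORT HFSC, against 24.6 and 15.8 CPM in Sham HFSC, also apart, with a log2 fold change of 1.17 (SE 0.56, adjusted p = 0.809). E2f2 had 6.53 and 4.07 CPM in ADX+CORT HFSC, against 3.47 and 1.27 CPM in Sham HFSC (log2 fold change 1.15, SE 0.63). Mcm7 (81.8 and 50.3 CPM in ADX+CORT HFSC, against 43.4 and 47.9 CPM in Sham HFSC) and Cdc45 (17.8 and 15.3 CPM in ADX+CORT HFSC, against 8.11 and 12.6 CPM in Sham HFSC) were also apart. Chaf1a, the large subunit of CAF-1, had 13.7 and 17.0 CPM in ADX+CORT HFSC, against 10.7 and 11.2 CPM in Sham HFSC, and Ccne2 had 3.93 and 4.94 CPM in ADX+CORT HFSC, against 2.59 and 3.46 CPM in Sham HFSC. Rrm2 and Prim2 overlapped between the groups, with log2 fold changes of 0.31 (SE 0.37) and -0.47 (SE 0.38). Toward lower values, Gins2 and Dut had log2 fold changes of -0.65 (SE 0.37) and -0.54 (SE 0.27), and Brca1 had -1.04 (SE 0.65). Pcna, Rrm1, Mcm6 and Mcm4, the abundant genes, had log2 fold changes of -0.01, 0.21, 0.15 and -0.15. A p-value that misses the threshold does not show that these groups are alike. This comparison shares its libraries with both others of the surgery experiment.

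**Figure D4:**
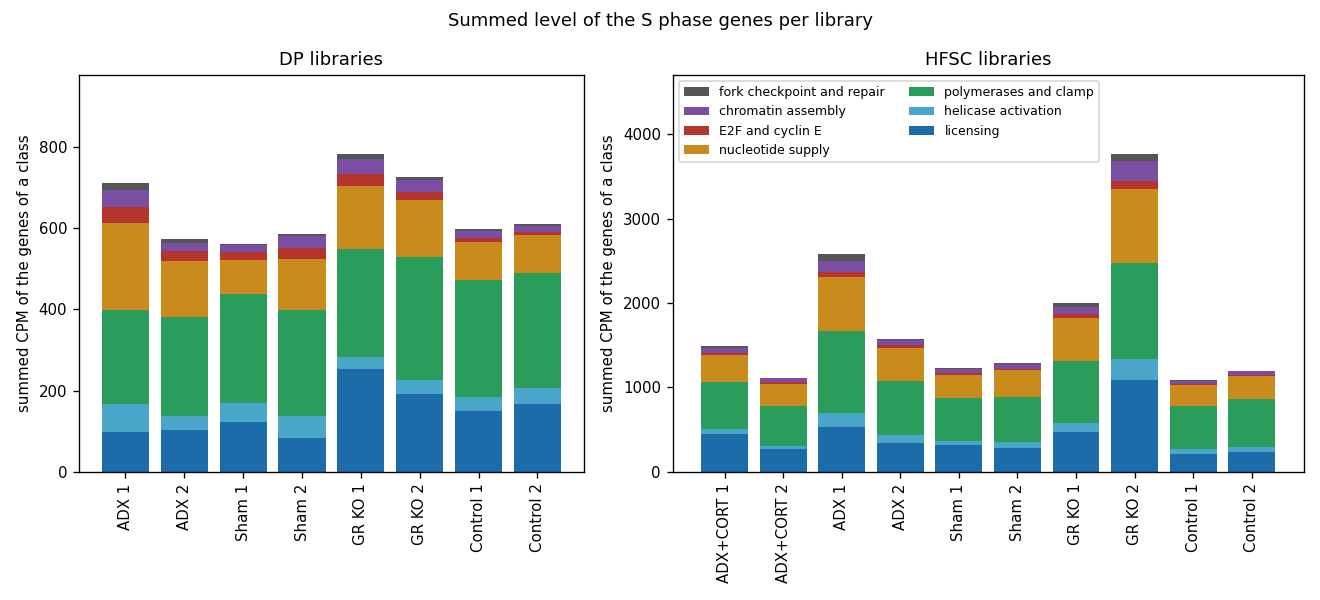
Summed CPM (y axis, from 0) of the 47 S phase genes in each library, stacked by function class, for DP and HFSC on separate scales. HFSC bars reach 2005 and 3766 CPM for GR KO and 1086 and 1195 CPM for Control, and 2580 and 1580 CPM for ADX, with ADX+CORT and Sham between 1110 and 1486 CPM.

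The effects of GR deletion and adrenalectomy in HFSC were compared directly, as the log2 fold change of GR KO over Control minus that of ADX over Sham. No S phase gene differed past the threshold and no gene of all tested did (0%). At an unadjusted p under 0.05, 7 of the 47 had the larger estimate for GR deletion and none for adrenalectomy (4.16% and 6.41% of all genes tested), and DESeq2 called 1. The 7 were Mcm6, E2f1, Mcm2, Ticrr, Mcm10, Ccne1 and Cdt1, of which 3 belong to licensing and none to the polymerases. The difference was 1.59 for Mcm6 (SE 0.41, adjusted p = 0.372), 2.29 for E2f1 (SE 0.67, adjusted p = 0.376) and 2.43 for Mcm2 (SE 0.73, adjusted p = 0.376). By contrast Tyms differed by 0.18 (SE 0.44), Prim1 by -0.15 (SE 0.37) and Gins2 by -0.02 (SE 0.51). The class medians of the difference were 1.35 for licensing and 0.27 for polymerases and clamp, beside 0.02 for all genes tested. The experiments differed in strain and tamoxifen as well, and these cannot be told apart from the kind of perturbation.

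In DP of GR KO mice, 37 of the 47 S phase genes had a positive log2 fold change against Control DP, as had 56.4% of all 23463 genes tested. No S phase gene passed edgeR's threshold, while of all genes 0.767% rose and 0.771% fell (1.54% together). At an unadjusted p under 0.05, 8 genes were higher and none lower (9.67% and 5.57% of all genes tested), and DESeq2 called 1 (Uhrf1). The median log2 fold change was 0.48, and that of all genes tested was 0.17. Both GR KO libraries lay above both Control libraries for 25 genes and below for 8, against 31.6% and 20% of all genes tested. All 4 chromatin assembly genes, 5 of 6 E2F and cyclin E genes and 4 of 5 nucleotide supply genes were among the 25, while polymerases and clamp had 3 above and 4 below. Of these E2F and cyclin E genes, all but E2f1 were apart by a narrow margin at a low level. The lower GR KO and higher Control values were 1.35 and 1.34 CPM for E2f2 and 1.90 and 1.77 CPM for E2f7. For E2f8 they were 0.476 and 0.372 CPM, and for Ccne1 1.585 and 1.497 CPM. Summed levels were 783 and 725 CPM in GR KO DP, against 598 and 610 CPM in Control DP.

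Uhrf1, which recruits maintenance DNA methylation at the fork, had 11 and 4.84 CPM in GR KO DP, against 0.709 and 0.744 CPM in Control DP. Its log2 fold change was 3.43 (SE 1.06, adjusted p = 0.149). E2f1 had 9.66 and 10.3 CPM in GR KO DP, against 1.81 and 0.465 CPM in Control DP (log2 fold change 3.11, SE 1.21, adjusted p = 0.25). Both genes were apart in both libraries and close to the counting limit in Control, where 5 to 23 reads were counted per library. Mcm4 had 53.0 and 40.7 CPM in GR KO DP, against 17.0 and 30.2 CPM in Control DP (log2 fold change 0.99, SE 0.39, adjusted p = 0.263). Mcm5 had 21.3 and 7.45 CPM in GR KO DP, against 5.20 and 4.09 CPM in Control DP (log2 fold change 1.62, SE 0.66, adjusted p = 0.276). Rrm1 had 77.8 and 67.4 CPM in GR KO DP, against 37.4 and 45.3 CPM in Control DP (log2 fold change 0.81, SE 0.31, adjusted p = 0.249). All 3 lay higher in both GR KO libraries. Tk1 had 13.2 and 9.43 CPM in GR KO DP, against 5.99 and 4.18 CPM in Control DP, and Clspn had 3.33 and 2.30 CPM in GR KO DP, against 0.473 and 0.651 CPM in Control DP, with log2 fold changes of 1.15 (SE 0.57) and 2.30 (SE 1.02).

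Of the 5 most abundant genes of this set in DP, Rrm1 was higher in both GR KO libraries as given above, and the other 4 were Pcna, Rfc2, Tyms and Mcm7. Pcna had 64.1 and 66.8 CPM in GR KO DP, against 74.3 and 78.8 CPM in Control DP, with no overlap and a log2 fold change of -0.23 (SE 0.26, adjusted p = 0.758). Mcm7 had 40.3 and 35.4 CPM in GR KO DP, against 41.8 and 56.7 CPM in Control DP (log2 fold change -0.38, SE 0.39). Rfc2 and Tyms had log2 fold changes of 0.28 (SE 0.32) and 0.13 (SE 0.44), with overlapping libraries. Gins2 had 10.8 and 11.7 CPM in GR KO DP, against 14.7 and 20.1 CPM in Control DP (log2 fold change -0.63, SE 0.39), and Rfc4 had 9.58 and 8.24 CPM in GR KO DP, against 15.8 and 14.8 CPM in Control DP (log2 fold change -0.78, SE 0.68). Pola1 was higher in both GR KO libraries, with a log2 fold change of 0.58 (SE 0.51). Mcm10 had 30 and 5 reads in GR KO DP, against 2 and 3 reads in Control DP, and E2f8 had 35 and 6 reads in GR KO DP, against 1 and 4 reads in Control DP, too few for a fold change.

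Beside these values, other cell types' markers differed between the DP libraries. The sum of 8 dermal fibroblast markers was 66020 and 76310 CPM in GR KO DP, against 24880 and 15850 CPM in Control DP. The 12 DP markers summed to 1920 and 2420 CPM in GR KO DP, against 3699 and 6050 CPM in Control DP. Crabp1 was the largest part of the sum in all of these libraries, followed by Notum in Control DP and by Wif1 in GR KO DP. Notum had 164 and 63.5 CPM in GR KO DP, against 571 and 818 CPM in Control DP. Wif1 had 433 and 927 CPM in GR KO DP, against 505 and 662 CPM in Control DP, and overlapped. Of these 12, 6 had a positive and 6 a negative log2 fold change (median -0.10), and 1 passed the threshold, Sox18, which rose to 134 and 118 CPM in GR KO DP, against 20.9 and 26.3 CPM in Control DP. The sum of 7 immune markers was 2793 and 32.0 CPM in GR KO DP and 359 and 187 CPM in Control DP. The part of these markers in the S phase values was not tested.

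In DP of ADX mice, 31 of the 47 S phase genes had a positive log2 fold change against Sham DP, as had 53.5% of all genes tested. No S phase gene passed edgeR's threshold, while of all genes 0.0128% rose and 0.00426% fell (0.017% together). At an unadjusted p under 0.05, 6 genes were higher and 1 was lower (4.18% and 7.49% of all genes tested), and DESeq2 called 0. The median log2 fold change was 0.26, and that of all genes tested was 0.08, and without ADX replicate 1 the median was -0.24. Both ADX libraries lay above both Sham libraries for 12 genes and below for 4, against 23.9% and 19.4% of all genes tested. Summed levels were 713 and 573 CPM in ADX DP, against 561 and 587 CPM in Sham DP, so that the groups overlapped.

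Rrm1 had 99.8 and 73.1 CPM in ADX DP, against 33.3 and 51.7 CPM in Sham DP, with no overlap and a log2 fold change of 1.02 (SE 0.31, adjusted p = 0.291). Tyms had 53.1 and 42.2 CPM in ADX DP, against 16.6 and 40.7 CPM in Sham DP (log2 fold change 0.73, SE 0.44, adjusted p = 0.557). Mcm5 had 10.6 and 20.3 CPM in ADX DP, against 4.88 and 4.19 CPM in Sham DP (log2 fold change 1.76, SE 0.67, adjusted p = 0.353). These 3 genes lay above the Sham range in both ADX libraries. The 2 subunits of primase went apart, since Prim2, the large subunit, had 26.1 and 27.8 CPM in ADX DP and 10.6 and 16.0 CPM in Sham DP, while Prim1 had 12.1 and 6.33 CPM in ADX DP and 11 and 37.5 CPM in Sham DP. Their log2 fold changes were 1.01 (SE 0.43, adjusted p = 0.401) and -1.40 (SE 0.60, adjusted p = 0.405), and Sham replicate 2 alone held the high Prim1 value. Pcna had 42.3 and 54.6 CPM in ADX DP, against 79.5 and 66.4 CPM in Sham DP, lower in both libraries (log2 fold change -0.59, SE 0.27, adjusted p = 0.43).

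Scarce genes gave the widest values in this comparison. Brca1 had 19 and 7 reads in ADX DP, against 0 and 1 read in Sham DP, and no fold change is given on so few reads. E2f2 had 4 and 1 reads in ADX DP, against 0 and 138 reads in Sham DP, so that its value rests on Sham replicate 2. E2f8 had 3.20 and 3.75 CPM in ADX DP, against 0.523 and 0.322 CPM in Sham DP, on 4 to 32 reads per library (log2 fold change 3.01, SE 1.29, adjusted p = 0.405). Mcm10 had 5.42 and 3.75 CPM in ADX DP and 0.610 and 1.85 CPM in Sham DP, and Cdc6 had 1.53 and 2.81 CPM in ADX DP and 0.261 and 0.564 CPM in Sham DP, both with no overlap. Rrm2, with 21.8 and 4.34 CPM in ADX DP against 0.784 and 6.20 CPM in Sham DP, and Uhrf1, with 17.1 and 2.34 CPM in ADX DP against 2.70 and 6.20 CPM in Sham DP, overlapped. Rfc2 (log2 fold change 0.37, SE 0.32), Gins2 (-0.37, SE 0.39) and Mcm7 (-0.06, SE 0.40) differed by less than or about their standard error. Pericyte and smooth muscle markers, 5 genes, summed to 5267 and 809 CPM in ADX DP and 146 and 257 CPM in Sham DP. In the other direction, 6 markers of differentiated epidermis summed to 313 and 190 CPM in ADX DP, against 776 and 2915 CPM in Sham DP, and 4 keratinocyte markers to 56.4 and 34.9 CPM in ADX DP, against 118 and 276 CPM in Sham DP. The part of these markers in the S phase values was not tested. The difference between the effects of GR deletion and adrenalectomy in DP passed edgeR's threshold for no S phase gene, against 0.477% of all genes tested (0.349% larger for GR deletion and 0.128% smaller). By unadjusted p under 0.05, 2 of the 47 were larger and 1 smaller (10.6% and 4.69% of all genes tested), and DESeq2 called 0.

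Genes outside the 47 were counted from further lists. Of 46 other replication genes, 3 rose in GR KO HFSC, among them Asf1b, a histone chaperone, and Dtl, an adaptor for the destruction of CDT1, beside 0.67% of all genes tested that rose. None of the 46 passed without either Control library or without GR KO replicate 2, 8 passed without GR KO replicate 1, and DESeq2 called 13. Over the 46 genes the median log2 fold change was 0.56, below that of the 47 genes at 1.53. Dtl had 23.8 and 45.1 CPM in GR KO HFSC, against 4.19 and 2.46 CPM in Control HFSC (log2 fold change 3.38, SE 0.61, adjusted p = 0.0327). Of 28 RB and E2F regulators, 27 were tested and 1 rose in GR KO HFSC, Mycn, a growth-promoting transcription factor. It had 33.5 and 53.1 CPM in GR KO HFSC, against 9.30 and 7.33 CPM in Control HFSC (log2 fold change 2.38, SE 0.40, adjusted p = 0.0327), and no gene of this list passed without either Control library or without GR KO replicate 2. In ADX HFSC none of these 2 lists passed edgeR's threshold, and DESeq2 called 6 and 0. By an unadjusted p under 0.05, 16 and 3 genes were higher and 0 and 1 lower, against 9.01% and 6.21% of all genes tested. The smallest adjusted p there was that of Gmnn, geminin, the inhibitor of CDT1 (log2 fold change 2.35, SE 0.56, adjusted p = 0.0863). In ADX+CORT HFSC against ADX HFSC the 2 lists had medians of -0.50 and -0.05, with none past edgeR's threshold and 8 and 1 called by DESeq2. By an unadjusted p under 0.05, 14 and 1 were lower and 0 and 2 higher, against 9.53% and 9.78% of all genes tested.

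Genes of the G2 and M phases, which follow replication, were higher in the same HFSC groups. Of 30 such genes, 15 rose in GR KO HFSC, with a median log2 fold change of 2.90, and 2 rose in ADX HFSC (Ccnb2, cyclin B2, and Birc5, survivin), with a median of 2.17, beside 0.67% and 0.282% of all genes tested that rose. The GR KO count was 3 without Control replicate 1, 0 without Control replicate 2, 1 without GR KO replicate 2, 26 without GR KO replicate 1 and 28 with DESeq2. The ADX count was 0 without either Sham library, without ADX replicate 1 and with the replicate block, 15 without ADX replicate 2 and 19 with DESeq2. Their summed level was 1626 and 3462 CPM in GR KO HFSC, against 475 and 224 CPM in Control HFSC. In the surgery experiment it was 552 and 232 CPM in ADX+CORT HFSC, 2106 and 816 CPM in ADX HFSC, and 311 and 363 CPM in Sham HFSC. In every HFSC group except Control, the library with the higher S phase sum was also that with the higher G2 and M phase sum. In DP the sum was 430 and 244 CPM in GR KO, against 84.7 and 38.6 CPM in Control, and 415 and 150 CPM in ADX, against 68.0 and 130 CPM in Sham, with none of the 30 genes past edgeR's threshold in either comparison. Of the 30, 17 were higher in GR KO DP and 5 in ADX DP at an unadjusted p under 0.05, and DESeq2 called 11 and 2. Of all genes tested, 9.67% and 4.18% were higher at that unadjusted p. Counts over all genes with DESeq2 and with a library left out are given at the end. The proliferation gene Mki67 had 146 and 283 CPM in GR KO HFSC, against 30.1 and 9.12 CPM in Control HFSC (log2 fold change 3.46, SE 0.78, adjusted p = 0.0565), and Top2a, a topoisomerase, had 115 and 208 CPM in GR KO HFSC, against 30.9 and 10.6 CPM in Control HFSC. Of the cell cycle inhibitors, Cdkn1c had 3.91 and 1.39 CPM in GR KO HFSC, against 5.83 and 12.5 CPM in Control HFSC (log2 fold change -1.78, SE 0.66, adjusted p = 0.254), while Cdkn1b had a log2 fold change of 0.02 (SE 0.27) and Cdkn1a, the p53 target p21, of 0.60 (SE 0.33).

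**Figure D5:**
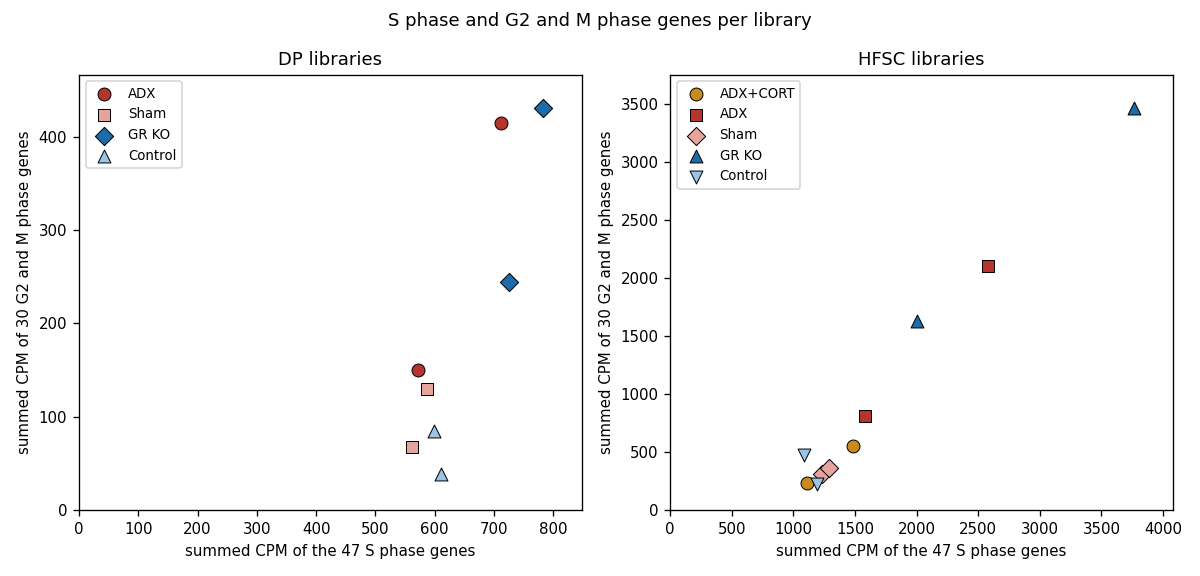
Summed CPM of the 47 S phase genes (x axis) and of 30 G2 and M phase genes (y axis) per library, in DP and HFSC on separate scales from 0. In HFSC the GR KO libraries (2005 and 3766 CPM for S phase, 1626 and 3462 CPM for G2 and M phase) and ADX replicate 1 lie farthest from the origin, and the Control, Sham and ADX+CORT libraries lie close together.

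Of 10 HFSC markers, 1 passed the threshold in GR KO HFSC, 3 lay below both Control libraries and 7 overlapped, among them Lhx2, Nfatc1, Sox9 and Itga6. Of all genes tested, 0.315% fell past the threshold and 19.1% lay below both Control libraries. In ADX HFSC none of the 10 passed edgeR's threshold, 6 were lower at an unadjusted p under 0.05, 7 lay below both Sham libraries and 3 overlapped. The shares over all genes tested were 6.21% lower at that unadjusted p and 23.9% below both Sham libraries. Cd34, a surface marker of bulge stem cells that dermal fibroblasts also express, had 784 and 663 CPM in GR KO HFSC, against 1924 and 2143 CPM in Control HFSC, and fell by 1.49 on the log2 scale (SE 0.29, adjusted p = 0.0384). In ADX HFSC it had 767 and 1493 CPM, against 2527 and 2350 CPM in Sham HFSC, and did not pass (adjusted p = 0.101). Krt15, a bulge keratin, was lower in both GR KO libraries than in Control and in both ADX libraries than in Sham, with log2 fold changes of -0.92 (adjusted p = 0.173) and -0.94 (adjusted p = 0.149). Krt35, a keratin of the hair shaft, had 4.37 and 5.02 CPM in GR KO HFSC, against 0.0511 and 0.0333 CPM in Control HFSC, and 9.70 and 4.45 CPM in ADX HFSC, against 0 and 0.0706 CPM in Sham HFSC, and rose in both comparisons (adjusted p = 0.0367 and 0.0455). The 10 HFSC markers summed to 23680 and 36090 CPM in GR KO HFSC, against 47710 and 55800 CPM in Control HFSC, and to 22090 and 33050 CPM in ADX HFSC, against 44300 and 49100 CPM in Sham HFSC, sums carried mainly by Krt15. The 8 hair matrix and shaft markers with a count summed to 92.0 and 121 CPM in GR KO HFSC, against 94.4 and 64.5 CPM in Control HFSC, and overlapped. Of these 8, Krt71 lay below both Control libraries in GR KO HFSC, and all others except Krt35 overlapped. In ADX HFSC the 8 summed to 178 and 113 CPM, against 112 and 75.4 CPM in Sham HFSC. There Msx2 and Foxn1 lay above both Sham libraries as Krt35 did, Dsg4 lay below both, and Hoxc13, Dlx3, Krt25 and Krt71 overlapped. The 7 immune markers summed to 2472 and 2990 CPM in GR KO HFSC and 2788 and 2551 CPM in Control HFSC. The part of these markers in the S phase values was not tested.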

How the data were processed

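The deposited HFSC files hold whole-number counts per gene. Per the file headers they came from featureCounts 1.6.1, which counted exons, dropped alignments of mapping quality under 30 and ignored strand; the submitters' processing notes list Trim Galore 0.4.1 and STAR 2.5.3. The deposited DP files hold estimated counts for each transcript, and those notes list Salmon; mm10 is named for both. Here the estimated counts were added up per GENCODE M21 gene symbol and rounded. Of 134967 transcripts, 150 had no match (at most 0.0752% of a library) and were left out. In 2 HFSC files, 27 gene names stood as dates and were restored. Per the labels' protocols, SMART-Seq v4 cDNA went into Nextera XT libraries, so strand is not marked.

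The edgeR 4.0.16 package (R 4.3.3) was run once per cell type on all groups, after filterByExpr and TMM scaling, with the two-sided quasi-likelihood test. Benjamini-Hochberg adjustment ran over all genes tested (23463 in DP, 15231 in HFSC) and the threshold was 0.05. SE is the size of the log2 fold change over the root of F. Biological variation between libraries (BCV) came to 54% for DP and 38.7% for HFSC. Levels per length use the exon length in the HFSC files, and in DP the length of each GENCODE M21 transcript, so that the length behind a DP gene can differ between libraries. Without molecular identifiers, several reads can stem from 1 molecule. The code was tested on simulated counts.

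The members, the gene lists and the rule for genes given most fully were chosen with earlier results of these data known. That rule takes every member past the threshold, the 1 or 2 smallest p-values per class, and the 5 highest levels per length in each cell type. Alternatives were DESeq2 1.42.0, another scaling (median of ratios), an unfiltered table, a fit of the compared groups alone, a block for replicate number, and omission of each library. The values of 1 gene of the other lists are not reported here.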

Additional observations from a re-analysis of the deposited data

How the results depend on the processing

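Median log2 fold changes of the 47 genes kept their sign under DESeq2, under scaling by median of ratios, in the unfiltered table, in fits of the compared groups alone and with the replicate block, except ADX+CORT against Sham, where the block gave 0.03 in place of -0.01. With DESeq2 and with no filter, S phase genes called numbered 27 and 32 for GR KO HFSC (9 as reported), 8 and 15 for ADX HFSC, 13 and 15 for ADX+CORT against ADX, 1 and 1 for GR KO DP, and 1 and 4 for the difference in HFSC. ADX+CORT against Sham had 1 with no filter. All genes called were, with DESeq2 and no filter, 717 and 840 for GR KO HFSC (150 as reported), 841 and 888 for ADX HFSC (45), 1318 and 1309 for ADX+CORT against ADX (0), 59 and 184 for ADX+CORT against Sham (0), 1373 and 1456 for GR KO DP (361), and 467 and 894 for ADX DP (4). With only the groups compared they were 93 for ADX HFSC, 2 for ADX+CORT against Sham, 142 for GR KO DP and 0 for ADX DP. The cause was not tested.

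With a library left out, S phase genes called ranged from 0 to 22 for GR KO HFSC, 0 to 5 for ADX HFSC and 0 to 9 for ADX+CORT against ADX. All genes called ranged from 5 to 336, 0 to 235 and 0 to 549 for these, 0 to 4 for ADX+CORT against Sham, 19 to 516 for GR KO DP and 1 to 33 for ADX DP. Median log2 fold changes of the 47 ranged from 1.10 to 1.86 for GR KO HFSC, 0.36 to 1.21 for ADX HFSC, -1.02 to -0.24 for ADX+CORT against ADX, and -0.24 to 0.45 for ADX DP. Where 1 library remained in a group, its spread was taken from the rest of the fit.

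Same-numbered libraries deviated with correlations of -0.148 to 0.22, so the numbers were not taken as a pairing. With the replicate block, 7 of the 9 genes of GR KO HFSC stayed called, and all genes called were 9 for ADX HFSC and 10 for ADX DP. Crossed numbers for ADX DP, tried after seeing the data, called 4 genes and 0 of the 47. Depth limits DP most, where up to 7 of the 47 genes had under 10 reads in a library.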
